A study of Mus musculus with 8 samples.

Results

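The comparison described here sets the untreated epidermis of mice labelled Ovol1 -/- against that of Ovol1 +/- controls, gene by gene. It used the 4 untreated libraries of the 8 in the series, 2 per genotype, and covered the 14268 of 16902 listed genes whose normalised count averaged at least 10 over those 4 libraries. All animals were CD1 mice, an outbred stock, and the RNA came from back-skin epidermis freed from the dermis with dispase, a protease that cuts at the basement membrane. Each genotype was represented by 1 female and 1 male library. The untreated controls carry 1 Ovol1 allele, so the comparison is of a heterozygote with the labelled homozygous knockout. The other 4 libraries came from skin treated with imiquimod (IMQ), which activates a Toll-like receptor and inflames mouse skin, in Ovol1 +/+ controls and Ovol1 -/- mice. They entered the fit for its estimate of spread and were also used to ask whether a gene's difference has the same sign there. The question is what labelled loss of Ovol1 does to resting epidermis.

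Ovol1 encodes a transcription factor with zinc fingers that stratified epithelia express. It is made as keratinocytes leave the basal layer, where it has been described as a repressor of proliferation and mesenchymal genes and of its own promoter, and it binds DNA at sites around the sequence CCGTTA. Its paralog Ovol2 has overlapping roles. Epidermis renews from basal cells, which anchor to the basement membrane, through suprabasal cells to cornified cells, whose envelope is built from proteins of the epidermal differentiation complex such as loricrin, the Lce and Sprr families and the S100-fused proteins filaggrin and trichohyalin. A sheet freed with dispase also holds hair follicle epithelium, sebaceous cells, Langerhans cells, T cells and melanocytes.

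Values below are the authors' normalised counts, read counts divided by a size factor per library, always given with the female before the male. Differences are log2 ratios (fold changes on a log2 scale) of labelled knockout over control on the scale of log2(value + 1), with the standard error (SE) from limma, n = 2 per group. That scale understates the change of genes with low values. No gene had an adjusted p under 0.05 in limma (0%), while 399 genes stood higher (2.8% of those tested) and 237 lower (1.66%) at an unadjusted p under 0.05. The edgeR test on recovered reads also called 0 genes, with 651 at an unadjusted p under 0.05. With sex entered as a block limma called 8 genes (0.0561%), 6 higher and 2 lower, and that fit called 0 genes when any 1 untreated library was omitted, 26 or 27 without the female or male IMQ control and 4 without either IMQ labelled knockout. DESeq2 on recovered reads called 89 (0.624%), 65 higher and 24 lower. Genes for which both labelled knockout libraries lay above both controls numbered 2483 (17.4%), and 2343 genes (16.4%) had both below. These shares are the background against which the counts below are to be read. "Rose" and "fell" are used for the 8 genes called with the block, and values alone are given for the others.

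The libraries were epidermal by their keratins. Krt14, a keratin of basal cells, was at 234399.8 and 187127 in controls against 227707 and 169079 in labelled knockouts, and Krt10, a keratin of suprabasal cells, was at 331017 and 289735 in controls against 302276 and 303739 in labelled knockouts. Depth was 33.7 to 43.1 M reads, highest in the female control. The median log2 ratio over all genes tested was -0.0023. Summed over 19 dermal fibroblast genes tested, the normalised count was 19221 and 32078 in controls against 10743 and 32709 in labelled knockouts, so the female labelled knockout held the least. Fewer cells of a type and less RNA per cell cannot be told apart in such bulk RNA.

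Reads of Ovol1 were present in all 4 libraries and more abundant in those labelled knockout. Its level was 16629 and 14582 in controls against 27433 and 26601 in labelled knockouts, a log2 ratio of 0.79 (SE 0.15, limma adjusted p = 0.340, 0.229 with the block, DESeq2 0.00109). The groups did not overlap. Because the table gives no values by exon, it cannot show whether the RNA holds the part of the gene that was deleted, and the value does not check the label. Ovol2 was at 237 and 361 in controls against 384 and 565 in labelled knockouts, with a log2 ratio of 0.67 (SE 0.27).

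The widest difference was at Tchhl1, which encodes a trichohyalin-like member of the S100-fused proteins and lies in the epidermal differentiation complex (chromosome 3, 93468754 to 93471980, plus strand, mm10). It was at 11.2 and 15.03 in controls against 2786 and 3066 in labelled knockouts, a ratio of means of 223 (log2 ratio 7.71, SE 0.68, limma adjusted p = 0.0586), and it rose with the block (adjusted p = 0.0308 in limma). The control values rest on 13 and 14 reads, against 2689 and 2976 in the labelled knockouts. No other of the 6 S100-fused genes tested came near it: Rptn, for repetin, had a log2 ratio of 0.72 (SE 0.34), Flg, for filaggrin, 0.45 (SE 0.48), Tchh, for trichohyalin itself, 0.34 (SE 0.23), Hrnr, for hornerin, -0.16 (SE 0.38) and Flg2, for filaggrin 2, -0.68 (SE 0.37).

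The other 5 genes that rose with the block encode proteins or RNA of varied roles. Psca, which encodes a glycolipid-anchored surface protein of the Ly6 family, was at 19.9 and 42.9 in controls against 1503 and 2481 in labelled knockouts (ratio of means 63.4, log2 ratio 5.996, SE 0.62, limma adjusted p = 0.0586, 0.0416 with the block). The long noncoding RNA gene Snhg11, a host of small nucleolar RNAs, was at 39.7 and 33.3 in controls against 339 and 451 in labelled knockouts (log2 ratio 3.39, SE 0.34, limma adjusted p = 0.0586, 0.0416 with the block). Alpk1 encodes a kinase that senses a bacterial sugar, and it was at 229 and 174 in controls against 900.3 and 737 in labelled knockouts (log2 ratio 2.02, SE 0.21, limma adjusted p = 0.0586, 0.0416 with the block). In each of these genes both labelled knockout libraries exceeded the higher control at least 3-fold. Slc34a2, a phosphate transporter gene, was at 203 and 275 in controls against 656 and 787 in labelled knockouts (log2 ratio 1.60, SE 0.19, adjusted p = 0.0377 in limma with the block). Spx, which encodes the peptide hormone spexin, was at 359 and 449.9 in controls against 1765 and 2365 in labelled knockouts (log2 ratio 2.34, SE 0.29, adjusted p = 0.0377 in limma with the block).

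A further 9 genes complete the 15 with the smallest p on the higher side, and 8 of these 9 are described here. Over the 15, the limma adjusted p without the block ranged from 0.0586 to 0.109. Within 2.5 Mb of Ovol1 on chromosome 19 lie Ap5b1, a subunit of the adaptor complex AP-5, at 141 and 148 in controls against 404 and 410.1 in labelled knockouts (log2 ratio 1.49, SE 0.18), and Aldh3b3, an aldehyde dehydrogenase gene, at 124 and 121 in controls against 1096 and 1053 in labelled knockouts (3.12, SE 0.35). Spink6, which encodes an inhibitor of kallikrein proteases, was at 28.5 and 31.1 in controls against 434 and 453 in labelled knockouts (3.85, SE 0.46). Omp, best known as a marker of olfactory neurons, was at 100.2 and 88.04 in controls against 672 and 518 in labelled knockouts (2.64, SE 0.32). Itga9, an integrin alpha subunit gene, was at 4.32 and 6.44 in controls against 74.6 and 85.5 in labelled knockouts (3.68, SE 0.39), on 5 and 6 reads in the controls. The last 3 of the 15 differed least. Msrb3, a methionine sulfoxide reductase gene, had a log2 ratio of 1.09 (SE 0.13), Eml5, for a microtubule-associated protein, 1.31 (SE 0.18), and Plekha6, for a pleckstrin homology domain protein, 0.97 (SE 0.12). DESeq2 called all 15, limma with the block 6 of them. Both fits used the libraries that chose these genes, so their calls are not separate support.

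On the lower side 2 genes fell with the block. Tmem177 encodes a mitochondrial inner membrane protein of cytochrome oxidase assembly and was at 1414 and 2212 in controls against 206 and 285 in labelled knockouts (log2 ratio -2.86, SE 0.33, limma adjusted p = 0.0631, 0.0308 with the block). The 25 respiratory chain genes tested had a median of 0.01. Fmo2, a flavin monooxygenase gene, was at 924 and 2166 in controls against 203 and 379 in labelled knockouts (log2 ratio -2.35, SE 0.57, limma adjusted p = 0.506, 0.0308 with the block). Its level in males was above that in females in both genotypes, and the labelled knockout was lower within each sex.

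The other 14 of the 15 lowest p values on this side had limma adjusted p of up to 0.406. They include 3 genes of the matrix around cells, Thbs2, for thrombospondin 2, at 5524 and 3801 in controls against 2399 and 2379 in labelled knockouts (log2 ratio -0.94, SE 0.17), Ccn1, a matricellular protein gene and target of YAP, at 28897 and 25727 in controls against 15736 and 17579 in labelled knockouts (-0.71, SE 0.14), and Egfl6, which encodes a matrix protein of the hair follicle stem cell niche, at 373 and 322 in controls against 162 and 186 in labelled knockouts (-0.99, SE 0.20). The groups did not overlap for any of the 3, as the choice of the 15 genes required. Thbs2 is also one of the dermal fibroblast genes, whose sum was lower in the female labelled knockout and not in the male, and the part of fibroblast RNA in its difference was not tested. Tnfrsf11b, for osteoprotegerin, the decoy receptor of the cytokine RANKL, was at 909.6 and 1027 in controls against 369 and 250.4 in labelled knockouts (-1.67, SE 0.32). Tnfsf11, the gene of RANKL, was at 25.1 and 6.44 in controls against 48.7 and 32.97 in labelled knockouts (1.56, SE 0.68, unadjusted p = 0.0533 in limma). In these 4 libraries the decoy stood lower, as its choice required, and the ligand higher without overlap. Tnfsf11 was singled out after its values were seen, and these are low and far apart between the controls. Ces2f, a carboxylesterase gene, was at 705 and 456 in controls against 102 and 83.5 in labelled knockouts (-2.61, SE 0.51), and Chac1, which encodes an enzyme that degrades glutathione, at 504 and 383 in controls against 135 and 115 in labelled knockouts (-1.81, SE 0.38). Trpm3, a cation channel gene, was at 467 and 316 in controls against 114 and 177 in labelled knockouts (-1.43, SE 0.31). Stat4, a transcription factor gene of lymphocyte cytokine signalling, was low in all 4 libraries at 22.5 and 13.96 in controls against 3.11 and 3.09 in labelled knockouts (-2.19, SE 0.47). The remaining 6 ran from -1.71 for Tbc1d24, a vesicle trafficking gene, to -0.74 for Dusp14, a phosphatase gene, with Chn2 at -1.09, Dnajc6 at -1.05, Maob, for monoamine oxidase B, at -0.93 and Dpysl3 at -0.85. DESeq2, on the libraries that chose these genes, called 13 of the 15, all but Chn2 and Stat4.

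**Figure D1:**
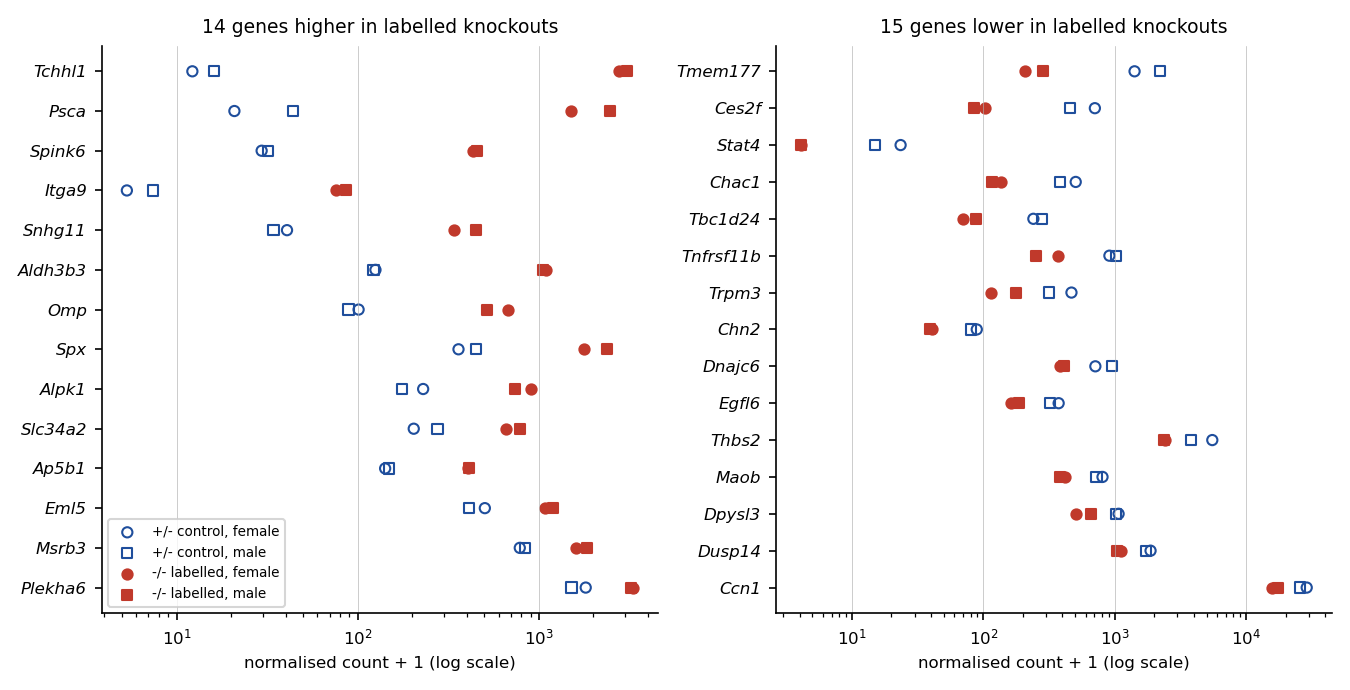
Normalised count plus 1 (log axis) of 14 of the 15 genes with the smallest limma p on the higher side and of the 15 on the lower side, 1 symbol per library: open blue for Ovol1 +/- controls, filled red for libraries labelled -/-, circles female and squares male. In every gene the 2 filled symbols lie on 1 side of both open ones, as the choice of these genes required, and Tchhl1 and Psca are the widest apart.

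Female and male pairs were set side by side as the only repeat of the contrast within the untreated table. The log2 difference had the same sign in both sexes for 57.5% of the 14268 genes, and the correlation across genes was 0.38. Genes are not independent replicates, and the value is a description only. More than 2-fold differences in both pairs numbered 135 genes higher and 64 lower, against 24 higher in females and lower in males and 17 the other way. Past 4-fold, 32 genes stood higher in both pairs (0.224%) and 10 lower (0.0701%), against 3 and 0 in opposite directions.

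**Figure D2:**
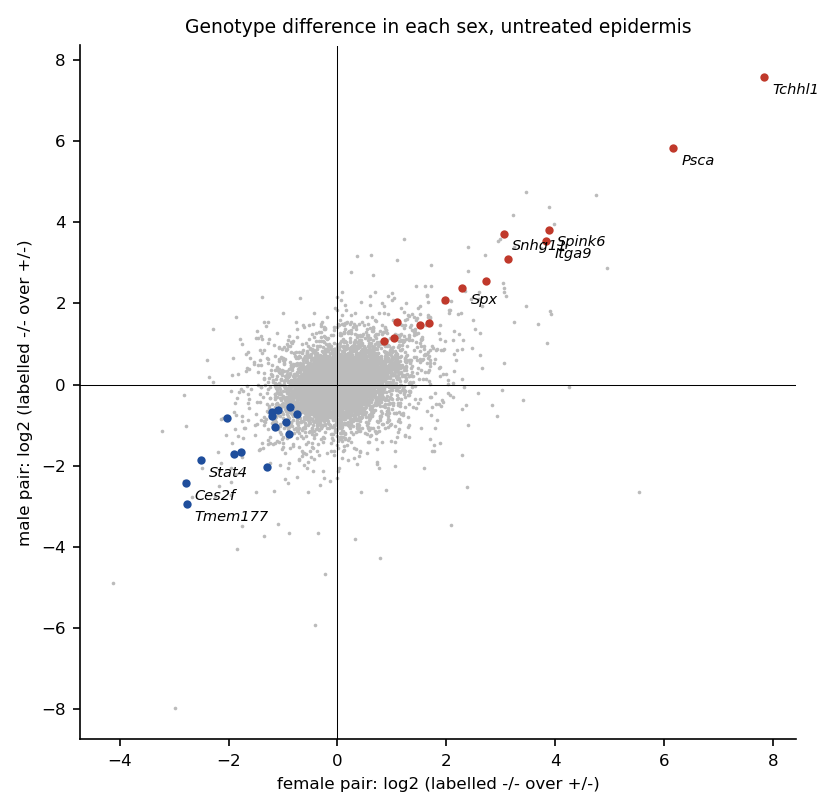
Log2 ratio of labelled -/- over +/- in the female pair (x axis) against the male pair (y axis) for 14268 genes in grey, with 14 of the 15 genes of smallest limma p higher (red) and the 15 lower (blue) in the labelled knockouts coloured. Tchhl1 and Psca stand alone at the upper right and most grey points lie within 2 log2 units of 0.

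Among the 32 genes over 4-fold higher in both pairs were several that encode regulators and are low in the controls; these and the next 6 genes were singled out after their values were seen. Atoh8, a basic helix-loop-helix factor gene, was at 9.50 and 17.2 in controls against 164 and 283 in labelled knockouts (log2 ratio 3.97, SE 0.59, limma adjusted p = 0.140, DESeq2 7.66e-08). Gata2, a zinc-finger factor gene of blood progenitors, was at 6.05 and 6.44 in controls against 93.2 and 76.2 in labelled knockouts (3.56, SE 0.84). Ebf3, another transcription factor gene, had 0 and 1 reads in controls against 25 and 50 in labelled knockouts. Cdkn2a, which encodes the cell cycle inhibitors p16 and p19, was at 5.18 and 12.9 in controls against 49.7 and 77.3 in labelled knockouts (2.77, SE 0.65). The 32 cell cycle genes tested had a median of -0.02 (-0.19 when the male control was omitted, 0.25 when the male labelled knockout was), with 3 above and 2 below the controls in both labelled knockouts. Bglap3, an osteocalcin-related gene, was at 76.9 and 66.6 in controls against 1150.0 and 1398 in labelled knockouts (4.13, SE 0.88). Kcnab3, a potassium channel subunit gene, was at 59.6 and 51.5 in controls against 467 and 614 in labelled knockouts (3.25, SE 0.48). Gper1, a G protein-coupled estrogen receptor gene, had 2 and 1 reads in controls against 28 and 53 in labelled knockouts. Gchfr, for the regulator of GTP cyclohydrolase, was at 69.97 and 193 in controls against 593 and 939.7 in labelled knockouts (2.67, SE 0.68). In each of these genes the groups did not overlap, which the choice of genes over 4-fold higher in both pairs makes likely. On the lower side Serpinb9b, a granzyme inhibitor gene, had 19 and 113 reads in controls against 0 and 3 in labelled knockouts, and Acsl6, an acyl-CoA synthetase gene, was at 28.5 and 33.3 in controls against 5.18 and 4.12 in labelled knockouts (-2.50, SE 0.54). For the genes named here the limma adjusted p ran from 0.109 (Gper1) to 0.534 (Gchfr). DESeq2 did not call Ebf3 (adjusted p = 0.0516) or Acsl6 (0.333).

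Some of the genes that differed most are neighbours. Of the 40 genes over 4-fold apart in both pairs that have a name, 4 pairs lay within 200 kb of each other, each pair with the same sign: Psca with Lypd2 on chromosome 15, Pip5kl1 with St6galnac6 on chromosome 2, Slco1a5 with Spx on chromosome 6, and Dlx4 with Dlx4os on chromosome 11. These pairs were singled out after their values were seen. How many such pairs other genes would give was not counted, so the 4 pairs do not show clustering. Of the genes over 4-fold apart in both pairs 32 stood higher and 10 lower, which makes a shared sign likely. Pip5kl1, for a phosphatidylinositol phosphate kinase-like protein, was at 12.1 and 7.52 in controls against 121 and 154 in labelled knockouts and St6galnac6, for a sialyltransferase, at 42.3 and 46.2 in controls against 219.6 and 233 in labelled knockouts, with a gap of 15.9 kb between them. Slco1a5, an organic anion transporter gene 90.5 kb from Spx, was at 10.4 and 30.1 in controls against 61.1 and 134 in labelled knockouts. Dlx4, a homeobox gene, and Dlx4os overlap by 1212 bases on opposite strands, and since the strand setting of the counting is not known, their reads may not be fully separate.

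Around Psca the higher values ran through a row of adjacent genes, looked at after the values of Psca and Lypd2 were seen. Psca, Them6, Slurp1, Lypd2 and Slurp2 follow each other over 31.9 kb (chromosome 15, 74714839 to 74746693, mm10). All of them but Them6 encode small proteins of the Ly6 family, and Slurp1 and Slurp2 are secreted by keratinocytes. Lypd2 was at 5.18 and 9.66 in controls against 113 and 115 in labelled knockouts (log2 ratio 3.83, SE 0.60, limma adjusted p = 0.175). Slurp1 was at 614 and 1075 in controls against 2266 and 2996 in labelled knockouts (1.68, SE 0.54), Them6 at 19.004 and 25.8 in controls against 55.9 and 101 in labelled knockouts (1.72, SE 0.37) and Slurp2 at 21.6 and 42.9 in controls against 92.2 and 148 in labelled knockouts (1.90, SE 0.71). In all 5 both labelled knockout libraries stood above both controls, and DESeq2 called Psca and Lypd2. Psca and Lypd2 were picked as higher and the row ends where the groups overlap, so its uniformity is largely fixed by that choice. Them6 and Slurp1 overlap by 322 bases on opposite strands. Beyond this row the groups overlapped at Lynx1 (0.44, SE 0.31), Ly6d (-0.09, SE 0.19) and Ly6e (-0.12, SE 0.19) on one side and at Jrk (0.02, SE 0.33) on the other. Arc, an immediate early gene one place beyond Jrk, was at 15411 and 11398 in controls against 26258 and 23654 in labelled knockouts (0.91, SE 0.20, limma adjusted p = 0.406, DESeq2 0.0134). Farther out the groups overlapped at Mroh4 (1.29, SE 0.83), Ly6a (-0.67, SE 0.37) and Ly6c1 (-1.13, SE 0.69). Of the 13 genes tested within 500 kb, 6 had both labelled knockouts above both controls and 0 below, the chosen genes included. Over all genes tested 17.4% were above and 16.4% below.

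The genes around Ovol1 itself were also set apart from the rest of chromosome 19, since a targeted allele is carried with its flanking chromosome. Within 2.5 Mb of the Ovol1 start, 40 of 158 genes (25.3%) had both labelled knockouts above both controls and 24 (15.2%) below. On the rest of chromosome 19 these were 69 (21.4%) and 44 (13.7%) of 322. Chromosome 19 as a whole, with Ovol1, had 22.9% above, the highest share of the autosomes and X, and 14.1% below. Over all genes tested the shares were 17.4% and 16.4%. Ap5b1, whose start lies 7.38 kb beyond that of Ovol1 on the opposite strand, was among the 15 named above, and Ehbp1l1, for an endocytic adaptor protein, was at 1338 and 1109 in controls against 2009.8 and 1965 in labelled knockouts (0.71, SE 0.13, limma adjusted p = 0.340, DESeq2 0.0107). Farther off, Tcirg1, for a proton pump subunit, was at 966 and 877 in controls against 1353 and 1376 in labelled knockouts (0.57, SE 0.13), Gstp1, a glutathione transferase gene, at 1246 and 1208 in controls against 826 and 749 in labelled knockouts (-0.64, SE 0.15), and Gpha2, a glycoprotein hormone subunit gene, at 402 and 446 in controls against 198 and 147 in labelled knockouts (-1.30, SE 0.31). Ehbp1l1, Tcirg1, Gstp1 and Gpha2 were singled out after their values were seen. Whether the flanking chromosome or Ovol1 sets these values cannot be told apart in this design.

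**Figure D3:**
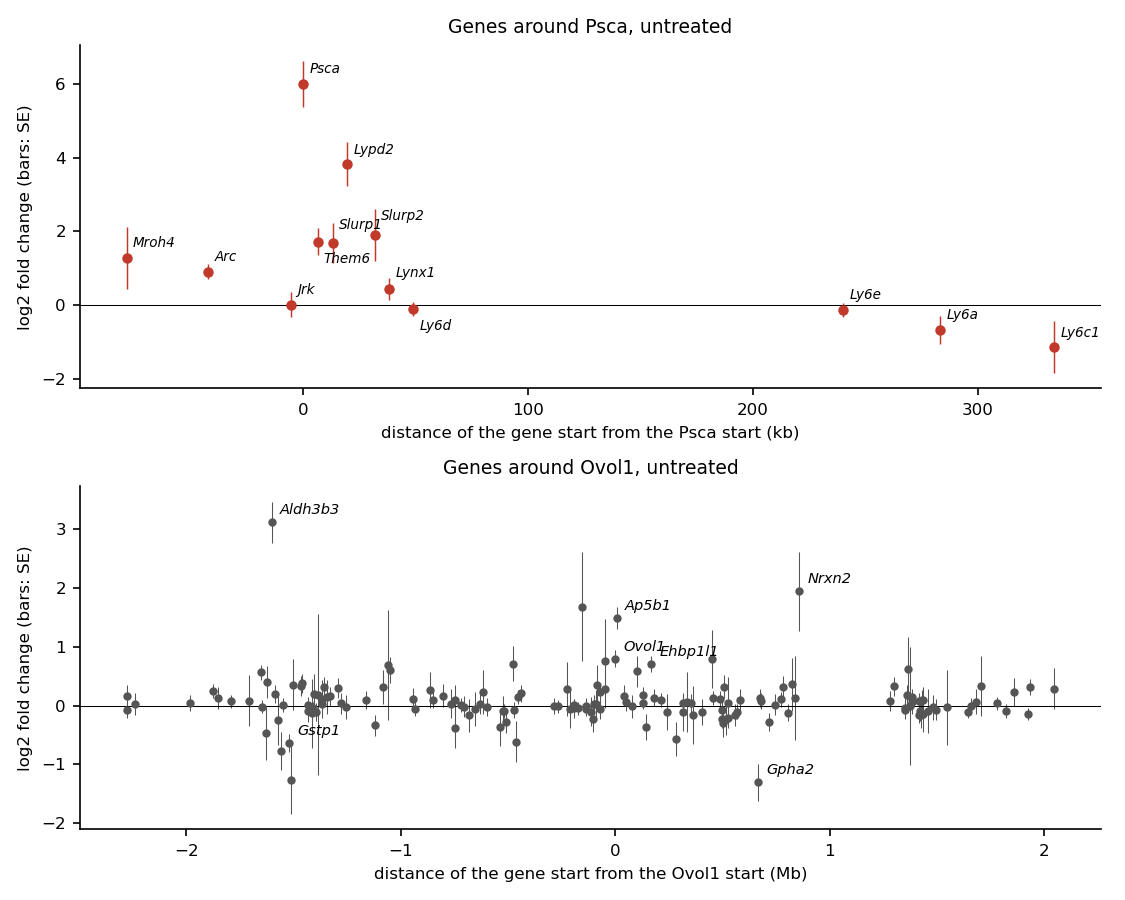
Log2 ratio (labelled -/- over +/-, bars are limma SE) of each gene tested against the distance of its start from that of Psca in kb (upper panel) and of Ovol1 in Mb (lower panel). In the upper panel Psca, Them6, Slurp1, Lypd2 and Slurp2 lie at 1.68 or above and the genes to their right at 0.44 or below, and in the lower panel Aldh3b3 at 3.12 stands highest.

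The promoters of the genes that differed were searched for CCGTTA, the core of the described OVOL site, on both strands of windows from 250 bases before to 50 after each RefSeq start (GRCm38.p6). It was found in 906 of all 32851 windows (2.76%) and in a window of 472 of 11202 genes tested that have one (4.21%). Of the 15 genes highest by p it was in 1 of 11 with a window, Ap5b1, and of the 15 lower in 0 of 12. Among the genes over 4-fold higher in both pairs it was in 3 of 22, Gchfr, Ttc7b and Dlx4os. At an unadjusted p under 0.05 the share was 4.95% (15 of 303) for genes that stood higher and 2.78% (5 of 180) for those that stood lower. A match is only these letters in this window. For each of these 4 genes 1 window that holds it is shown (Ttc7b has another, 15 bases away, with the same match), along with that of Tchhl1, the gene of widest difference, which does not. They are written 5′ to 3′ on the gene's strand, with CCGTTA or its reverse complement TAACGG in capitals, for chr19:5567774-5568073 plus (Ap5b1), chr2:119167538-119167837 plus (Gchfr), chr12:100520788-100521087 minus (Ttc7b), chr11:95144803-95145102 plus (Dlx4os) and chr3:93468504-93468803 plus (Tchhl1):
Ap5b1: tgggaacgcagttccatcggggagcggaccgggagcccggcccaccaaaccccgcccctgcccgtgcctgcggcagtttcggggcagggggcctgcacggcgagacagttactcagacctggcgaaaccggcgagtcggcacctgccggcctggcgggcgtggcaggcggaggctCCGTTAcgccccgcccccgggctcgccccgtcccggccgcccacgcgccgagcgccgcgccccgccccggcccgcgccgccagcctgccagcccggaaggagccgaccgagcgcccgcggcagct
Gchfr: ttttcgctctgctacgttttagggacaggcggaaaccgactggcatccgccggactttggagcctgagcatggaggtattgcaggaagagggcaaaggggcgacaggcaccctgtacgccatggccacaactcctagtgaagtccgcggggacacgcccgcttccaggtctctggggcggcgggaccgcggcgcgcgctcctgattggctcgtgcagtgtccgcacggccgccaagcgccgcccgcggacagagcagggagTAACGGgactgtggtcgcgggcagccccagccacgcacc
Ttc7b: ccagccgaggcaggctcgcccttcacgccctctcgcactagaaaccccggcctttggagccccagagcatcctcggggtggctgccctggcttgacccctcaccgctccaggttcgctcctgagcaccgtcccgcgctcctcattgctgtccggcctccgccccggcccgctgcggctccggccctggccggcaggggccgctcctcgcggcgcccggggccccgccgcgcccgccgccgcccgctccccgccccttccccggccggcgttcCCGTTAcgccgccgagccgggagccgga
Dlx4os: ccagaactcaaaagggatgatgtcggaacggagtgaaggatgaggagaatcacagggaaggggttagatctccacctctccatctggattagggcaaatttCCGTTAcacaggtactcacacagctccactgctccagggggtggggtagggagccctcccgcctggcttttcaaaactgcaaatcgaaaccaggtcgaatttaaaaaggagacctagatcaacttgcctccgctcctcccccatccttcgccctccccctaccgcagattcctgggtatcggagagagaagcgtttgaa
Tchhl1: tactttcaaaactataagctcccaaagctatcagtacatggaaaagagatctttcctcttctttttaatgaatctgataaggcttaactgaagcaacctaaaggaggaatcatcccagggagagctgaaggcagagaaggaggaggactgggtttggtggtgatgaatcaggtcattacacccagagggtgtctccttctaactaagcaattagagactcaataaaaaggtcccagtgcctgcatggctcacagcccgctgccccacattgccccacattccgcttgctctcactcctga
In Ap5b1 the match begins at position 176 of the 300-base window, 75 bases before the start; in Gchfr, Ttc7b and Dlx4os it begins at positions 262, 273 and 102.

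Genes for which regulation by OVOL factors has been described had log2 ratios from -0.23 (Id2) to 0.45 (Flg), apart from Ovol1 and Ovol2 themselves. Myc, the growth factor-responsive regulator, was at 14163 and 11737 in controls against 14099 and 11888 in labelled knockouts (log2 ratio 0.01, SE 0.25), and its sign turned under other scalings. Id2, an inhibitor of helix-loop-helix factors, was at 2689.9 and 3076 in controls against 2472 and 2441 in labelled knockouts (-0.23, SE 0.15), with both labelled knockouts below the controls. Zeb1 and Zeb2, factors of epithelial-mesenchymal transition, were at 0.10 (SE 0.19) and -0.12 (SE 0.47), and Vim, for the mesenchymal filament protein vimentin, at -0.12 (SE 0.38). Lor, the gene of the envelope protein loricrin, was at 65266 and 145483 in controls against 80766 and 96272 in labelled knockouts (-0.14, SE 0.51). For Myc, Zeb1, Zeb2, Vim, Lor and Il1a the groups overlapped. Il1a, the gene of interleukin 1 alpha, was at 0.15 (SE 0.18), while under IMQ, in other libraries and with +/+ controls, its log2 ratio was 1.86. Snai2, for another factor of epithelial-mesenchymal transition, was at 3112 and 1875 in controls against 1489 and 947 in labelled knockouts (-1.02, SE 0.36), and it was the only 1 of the 11 genes of that list with an unadjusted p under 0.05 in limma.

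Gene groups are described by how many of their tested genes had both labelled knockouts above or below both controls. No list member was called in limma without the block, and the lists' medians are set beside -0.0023 for all genes.

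In the cornified layer, the Lce1 genes of late differentiation stood lower by count. Of 14 tested, 12 had both labelled knockouts below both controls and 0 above, with a median log2 ratio of -0.47 (-0.34 for the female pair, -0.67 in the male), from -0.88 for Lce1l to -0.02 for Lce1g. Lce1c, as an example, was at 3980.5 and 4742 in controls against 2984 and 2904 in labelled knockouts (-0.56, SE 0.42, unadjusted p = 0.224 in limma). None of the 14 had an unadjusted p under 0.05, and near-identical copies in this family may share reads. Summed over the 14, the level was 66299 and 128571 in controls against 55807 and 74865 in labelled knockouts. The groups overlapped in this sum, and the male control was the highest library. Of the family's Lce3 branch, known from injured epidermis, 1 gene passed the filter, Lce3c at 68.2 and 47.2 in controls against 79.8 and 86.6 in labelled knockouts. The 12 Sprr genes tested had a median of 0.17, which had no stable sign (-0.37 without the male control, -0.20 without the female labelled knockout, 0.55 without the female control and 0.69 without the male labelled knockout), with 2 above the controls in both, 1 of them Sprr4 at 332 and 638 in controls against 1325 and 761 in labelled knockouts (1.13, SE 0.43). Among 14 envelope precursors and transglutaminases 3 were above and 4 below, the latter including Ivl, for involucrin, at 16337 and 14410.2 in controls against 9298 and 11301 in labelled knockouts (-0.58, SE 0.20) and Pglyrp4, for a peptidoglycan recognition protein, at 4137 and 2860.1 in controls against 2068 and 1159 in labelled knockouts (-1.15, SE 0.31). The 15 suprabasal genes had a median of -0.02 (0.04 without the male control or without the female labelled knockout), with 4 below. The 16 basal genes had a median of -0.15, with 4 below and 0 above. Females gave -0.30 and males -0.0050, and the median was 0.07 without the female control. Among the 4 was Dst, an anchor of hemidesmosomes, at 59115 and 53722 in controls against 38603 and 44466 in labelled knockouts (-0.44, SE 0.15). Of 21 transcription factors of differentiation 8 were above and 2 below, by 0.98 (SE 0.32) at most for Elf3, an epithelial ETS factor gene.

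Genes of follicle stem cells and the outer root sheath stood lower by count, and those of the sebaceous gland and of the hair shaft and inner root sheath higher. Of 18 follicle stem cell and outer root sheath genes, 11 had both labelled knockouts below both controls and 0 above, with all 18 log2 ratios negative and a median of -0.27. Cd34, a marker of bulge stem cells, was at 3306 and 3126 in controls against 1973 and 2333 in labelled knockouts (-0.58, SE 0.23), Dkk3, a Wnt modulator gene, at 1378 and 1382 in controls against 825 and 1054 in labelled knockouts (-0.57, SE 0.21) and Lhx2, a stem cell factor gene, at 1278 and 1087 in controls against 873 and 805 in labelled knockouts (-0.49, SE 0.27). Of 18 sebaceous genes, 8 were above and 0 below, with a median of 0.56 (0.87 female, 0.31 male). Elovl5, a fatty acid elongase gene, was at 3201 and 4634 in controls against 7080.0 and 8415 in labelled knockouts (1.00, SE 0.41), Plin2, for a lipid droplet protein, at 3487 and 4645 in controls against 8320.1 and 6342 in labelled knockouts (0.85, SE 0.26) and Scd1, a fatty acid desaturase gene, at 29450.3 and 46819.9 in controls against 69903 and 63538 in labelled knockouts (0.84, SE 0.39). The female control was the lowest of the 4 libraries for the summed sebaceous genes, 123596 against 182991 in the male control and 222280.4 and 223193 in the labelled knockouts. Without it the median of the sebaceous list was 0.15, and without the male control 0.91. Of 12 hair shaft and inner root sheath genes 6 were above and 1 below, at low levels such as 15.5 and 9.66 in controls against 16.6 and 50.5 in labelled knockouts for the hair keratin gene Krt35. The genes of sterol synthesis, 21 tested, had 9 above and 2 below with a median of 0.13 that was 0.046 without the female control and 0.28 without the male control. Of 25 genes of the barrier lipid list, which also holds the protease gene Asprv1, 5 were above and 2 below. Cers4, a ceramide synthase gene, was at 4111 and 6558 in controls against 9291 and 8891 in labelled knockouts (0.81, SE 0.34), Asprv1, for the protease that processes filaggrin, at 51674 and 77161 in controls against 91111 and 111343 in labelled knockouts (0.67, SE 0.26), and Lipk, a lipase gene of the upper layers, at 937 and 1559 in controls against 479 and 487 in labelled knockouts (-1.32, SE 0.31). Adipocyte genes summed to 1470.2 and 1862 in controls against 3834 and 3287 in labelled knockouts over 7 genes, 2 above and 1 below. Their median log2 ratio was -0.00079 for females and 0.76 for males, and -0.15 without the male control. Most of the female difference in these sums was Lpl, for lipoprotein lipase, the member with the smallest p, at 773 and 938 in controls against 2758 and 1718 in labelled knockouts (1.35, SE 0.25). The part of the other cell types in the lipid gene differences was not tested.

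Immune genes gave a mixed picture. Of 15 T cell genes 8 were above and 1 below, with a median of 0.28 that was 0.07 without the female control and 0.50 without the male control. Icos, a costimulatory receptor gene, was at 36.3 and 30.1 in controls against 91.2 and 69.03 in labelled knockouts (1.239, SE 0.45), and Ctla4, for an inhibitory receptor, was at 82.1 and 131 in controls against 21.8 and 27.8 in labelled knockouts (-2.03, SE 0.47). The 2 genes are neighbours on chromosome 1, 62.1 kb apart, and stood in opposite directions. Cd3e, a subunit of the T cell receptor complex, was at 245 and 311 in controls against 313 and 301 in labelled knockouts, with overlapping groups. Of 28 interferon response genes 2 were above and 8 below, with a median of -0.27 that was -0.01 for females and -0.40 for males, -0.46 without the female control and 0.01 without the male control. The axis of IL-23, IL-17 and IL-22 had 14 genes tested, 2 above and 1 below, with Il20, a cytokine gene of the IL-10 family, at 14.7 and 6.44 in controls against 81.8 and 77.3 in labelled knockouts (2.90, SE 0.57). Ccl22, a chemokine gene for T cells, was at 235 and 311 in controls against 1483 and 1188 in labelled knockouts (2.29, SE 0.61), Cxcl1, a neutrophil chemokine gene, at 179.7 and 120.2 in controls against 343 and 191 in labelled knockouts (0.79, SE 0.30) and Il18r1, a receptor chain gene for IL-18, at 828 and 1566 in controls against 470.3 and 566 in labelled knockouts (-1.14, SE 0.29). The lists of Ccl22 and Il18r1 leaned the other way. Of 14 chemokine genes other than those for neutrophils, 1 was above and 3 below, with a median of -0.19. Of 16 genes of the IL-1 and IL-36 family 3 were above and 1 below, with a median of 0.10. Of 4 neutrophil chemokine genes 2 were above and 1 below. Within the TNF family, 8 of 21 were above and 2 below, the lower ones being Tnfrsf11b and Tnfsf15, a ligand gene at 138 and 193 in controls against 88.1 and 56.7 in labelled knockouts (-1.20, SE 0.34). Of 15 Langerhans cell and MHC class II genes 1 was above and 0 below, as of 11 macrophage and monocyte genes. The defensin gene Defb1 was at 2439 and 3739 in controls against 1450.4 and 2011 in labelled knockouts (-0.82, SE 0.29) and Defb14 at 162 and 240.5 in controls against 83.9 and 118 in labelled knockouts (-0.98, SE 0.40), while Defb6 was at 0.10 (SE 0.28). They belong to an antimicrobial list of 9 genes with 1 above and 3 below.

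Among genes of detoxification, those of glutathione transferases diverged. Of 30 NRF2 and glutathione genes 8 were above and 5 below. Those below include Gstp1 (-0.64, SE 0.15) and Gstp2 (-1.26, SE 0.57), which lie within 2.5 Mb of Ovol1. Gsta4, for an enzyme that conjugates lipid aldehydes, was at 196 and 282 in controls against 637 and 892 in labelled knockouts (1.68, SE 0.42) and Gsta3 at 80.3 and 134 in controls against 260.0 and 171 in labelled knockouts (1.01, SE 0.33), while Gsta1 was at 94.2 and 75.2 in controls against 45.6 and 46.4 in labelled knockouts (-0.86, SE 0.42). The close sequences of Gsta1, Gsta2 and Gsta3 make the split of their reads uncertain. Of 10 aryl hydrocarbon receptor genes 5 were above and 0 below, with Cyp1a1, its classical target, at 475 and 775 in controls against 1081 and 1039 in labelled knockouts (0.80, SE 0.56). Fabp5 and Gjb6, markers of activated epidermis, were at 9311 and 13838 in controls against 16189.5 and 20543 in labelled knockouts (0.68, SE 0.23) and 90.7 and 97.7 in controls against 159 and 147 in labelled knockouts (0.69, SE 0.20), whereas Krt6a and Krt16, keratins of wounded epidermis, were at -0.12 (SE 0.24) and -0.45 (SE 0.68) with overlapping groups. Their list of stress keratins and hyperproliferation had 18 genes tested, 5 above and 0 below. Its median was 0.12, and -0.10 without the female labelled knockout. Rbpj, the DNA-binding partner of Notch, was at 2386 and 1824 in controls against 1478 and 1293 in labelled knockouts (-0.59, SE 0.18), and Notum, for a Wnt deacylase, at 3.46 and 6.44 in controls against 17.6 and 25.8 in labelled knockouts (1.95, SE 0.55). Ccn2, a YAP target like Ccn1, was at 8697 and 4657 in controls against 2764 and 4520.2 in labelled knockouts (-0.85, SE 0.33), with 1 of its labelled knockouts close to the lower control.

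**Figure D4:**
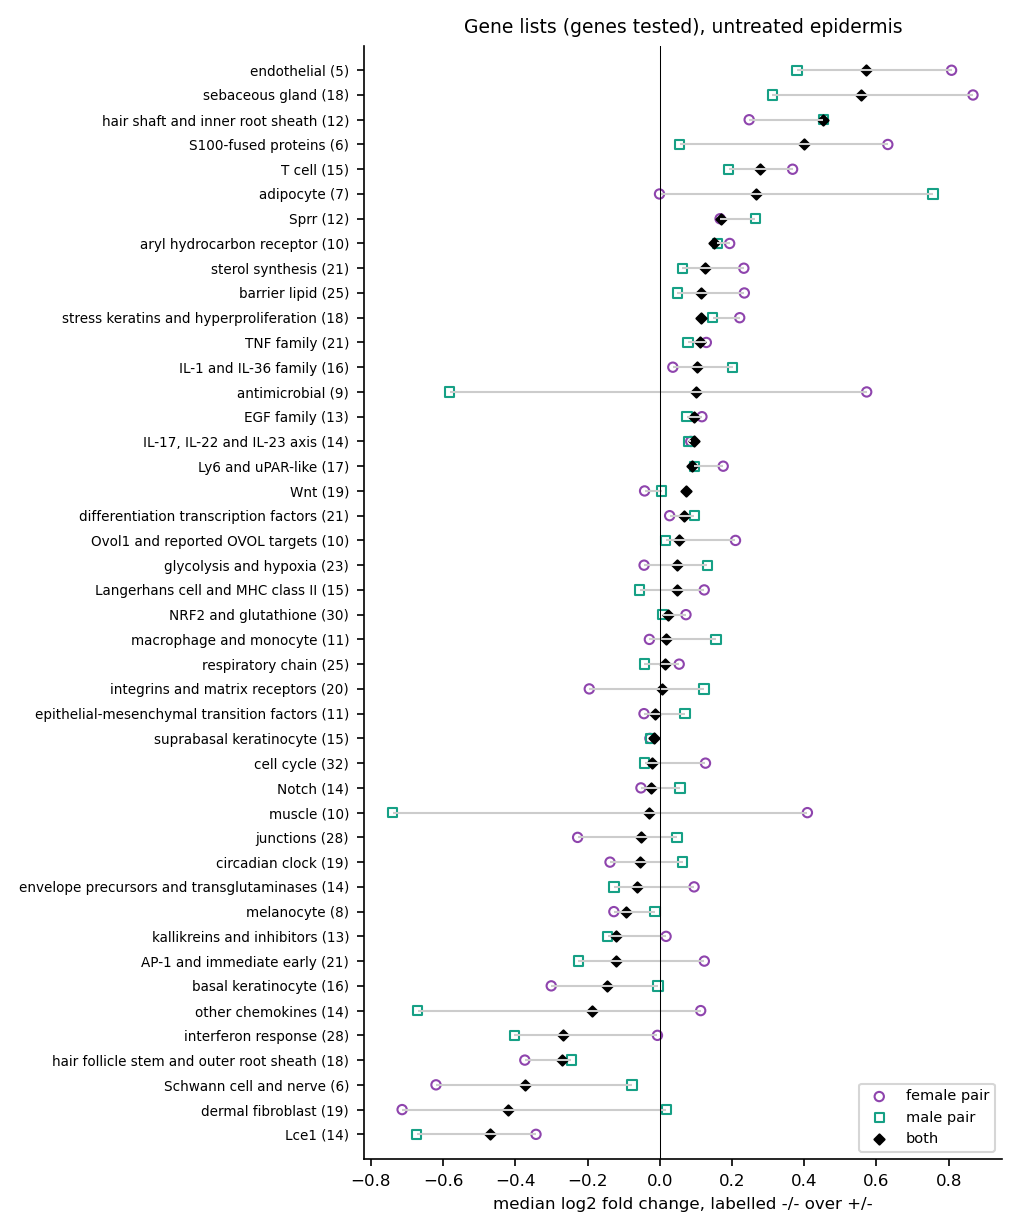
Median log2 ratio (labelled -/- over +/-) of each gene list with at least 5 genes tested, for the female pair (open circles), the male pair (open squares) and both (black diamonds), the number of genes in brackets. The Lce1 list lies lowest at -0.47, the endothelial list of 5 genes and the sebaceous list lie highest at 0.57 and 0.56, and the antimicrobial and muscle lists differ most between the sexes.

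The same genes were then looked up in the IMQ comparison, which used other libraries and +/+ controls, so the 2 contrasts share no sample, only the fit's estimate of spread. There limma called 65 genes (0.456%). The sign was the same in 55.0% of all genes, in 475 of the 636 genes (74.7%) with an unadjusted p under 0.05 untreated, in 26 of the 32 over 4-fold higher in both pairs and in 7 of the 10 over 4-fold lower. Of the 15 genes named on the higher side 14 had the same sign under IMQ and 4 were called there: Tchhl1 (log2 ratio 5.74, limma adjusted p = 0.0316), Slc34a2 (1.29, 0.0445), Ap5b1 (1.33, 0.0440) and Plekha6 (0.98, 0.0366). The exception in sign was Itga9 at -1.14 (SE 0.39). Psca had 3.47 (SE 0.62, limma adjusted p = 0.0672). Alpk1, Spx and Spink6, which differed 4-fold or more untreated, were at 0.19 (SE 0.21), 0.22 (SE 0.29) and 0.41 (SE 0.46) under IMQ. Of the 15 on the lower side 13 had the same sign and 2 were called, Tmem177 (-3.31, limma adjusted p = 0.0224) and Tnfrsf11b (-3.11, 0.0224). The exceptions in sign were Thbs2 at 0.02 (SE 0.17) and Dpysl3 at 0.04 (SE 0.19). Lce1 genes had a median of -3.16 there, follicle stem cell and outer root sheath genes -0.30 and sebaceous genes 0.13, beside -0.01 for all genes. The medians of hair shaft and inner root sheath genes (-0.26) and of T cell genes (-0.31) had the opposite sign to untreated skin. Tested as the difference of the contrasts, 0 of 14268 genes passed in limma (lowest adjusted p = 0.230, 1441 at an unadjusted p under 0.05), so none of these departures was shown to be particular to untreated skin. Control genotype and treatment cannot be told apart in that difference.

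**Figure D5:**
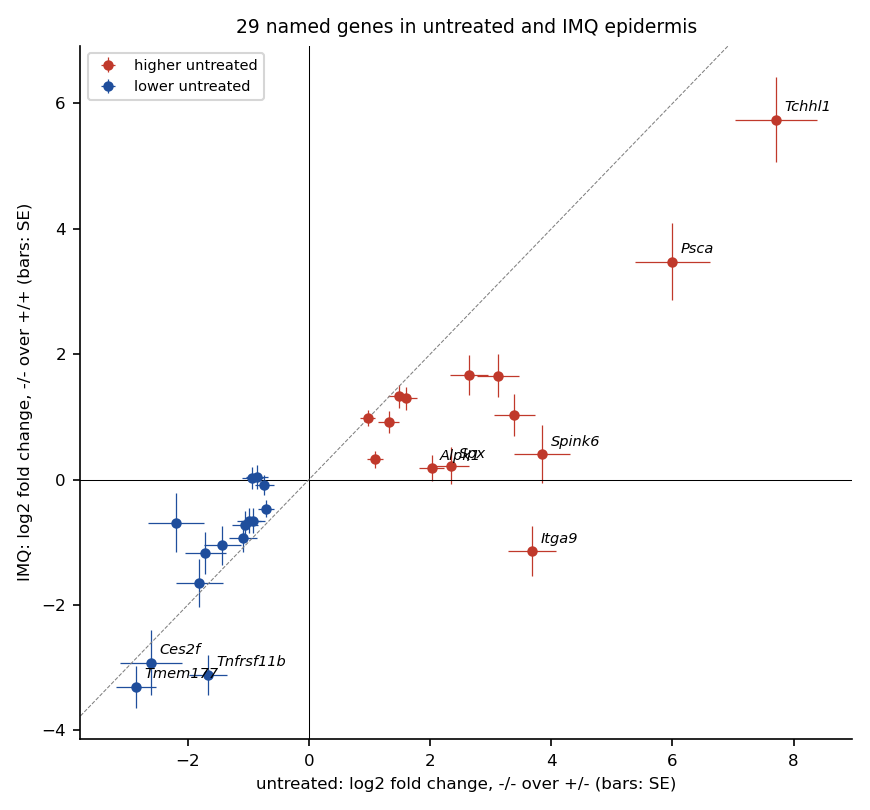
Log2 ratio with limma SE of 14 of the 15 higher (red) and the 15 lower (blue) genes in untreated epidermis (x axis, -/- over +/-) and under IMQ (y axis, -/- over +/+); the dashed line marks equal values. Tchhl1, Psca, Tmem177 and Tnfrsf11b lie far from 0 on both axes, while Itga9 at -1.14 is the one red point below 0 under IMQ.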

How the data were processed

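RNA sequencing was done on 8 epidermal libraries with a stranded polyadenylated RNA kit and 100-bp paired reads, per the labels' protocols. Per the submitters' processing notes the authors worked on the mm10 genome with STAR 2.5.2a after Trimmomatic 0.35, and with R 3.6.1 and DESeq2 1.24.0; which read counter and annotation they used is not stated there. Deposited were normalised counts (a signal), each library's read counts divided by 1 size factor, in an untreated and an IMQ table scaled separately. All values (100%, within 0.001 read) were whole multiples of 1 step per library, which gave recovered reads, 33.7 to 43.1 M per untreated library. On these reads edgeR 4.0.16 (quasi-likelihood) called 0 genes and DESeq2 1.42.0 called 89.

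The test was limma 3.58.1 in R 4.3.3 on log2(value + 1), 4 group means over 8 libraries (4 residual degrees of freedom), trended and robust moderation, 2-sided, with Benjamini-Hochberg adjustment over 14268 genes and a threshold of 0.05. Each contrast lies within 1 table, so separate scaling cancels. Nothing says that the female and male libraries of a group are more than 1 animal each, so p-values measure the spread between these libraries. Replicate numbers follow the labelled sex, and deviations from group means correlated by sex between all pairs of groups (0.160 to 0.495 across genes), so a fit with sex as a block stands beside the main one. Pairs are the female and the male difference.

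Named genes were Ovol1, Ovol2, the 15 smallest p per direction with groups that do not overlap, all genes of the reported OVOL target list, up to 2 members per other list with an unadjusted p under 0.05, epidermal keratins and genes called with the block; 1 of the 15 higher genes and 1 list member are not reported here, though counts include them; other list members are given as examples, chosen after their values were seen. The comparison, the rule and the 50 gene lists were chosen with earlier results of these data known. Of 822 listed symbols 693 were tested, 3 matched by synonym. Positions are from GENCODE vM21 (GRCm38) and promoters from RefSeq. The pipeline was tested on simulated data. Other settings were pseudocounts, filters, scaling, moderation, the table alone, the block, edgeR, DESeq2, a threshold of 0.10 and leaving out each library; leaving out a library with the block was an addition made after seeing the data. Python 3.11.15, pandas 2.3.3, numpy 2.4.6 and matplotlib 3.10.9 were used.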

Additional observations from a re-analysis of the deposited data

How the results depend on the processing

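Where limma called 0 genes (636 at an unadjusted p under 0.05), a pseudocount of 5 gave 5 calls, sex as a replicate block over all 8 libraries 8, the untreated table alone 8, edgeR with sex as a replicate block 6, DESeq2 89 and a threshold of 0.10 on the adjusted p 15. Leaving out 1 library at a time gave 0 to 2, the 2 being Spink6 and Snhg11 without either IMQ control and Tchhl1 and Aldh3b3 without either IMQ labelled knockout; a group's single remaining library takes the spread of the other groups. The cause of these shifts was not tested.

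Of 1695 values of the 81 named genes over all settings 71 (38 genes) passed the threshold where limma as reported did not and 22 (10 genes) turned sign; with 0 genes called there, none could lose a call. The sign changes were all in genes with small differences. Myc turned with TMM scaling (-0.020), edgeR (-0.021, and -0.021 with the block) and DESeq2 (-0.014), and with quantile normalisation Lor was at 0.0012 and Krt10 at 0.027. Leaving out 1 library gave log2 fold changes from -0.13 to 0.14 for Myc, -0.12 to 0.32 for Zeb1, -0.65 to 0.42 for Zeb2, -0.022 to 0.32 for Il1a, -0.72 to 0.43 for Lor, -0.54 to 0.30 for Vim, -0.27 to 0.049 for Krt5, -0.31 to 0.12 for Krt14, -0.24 to 0.43 for Krt1 and -0.13 to 0.065 for Krt10. The median of 33 of the 50 lists changed sign under some setting and that of 17 did not, Lce1 (-0.65 to -0.43 with 1 library left out), follicle stem cell (-0.35 to -0.29), sebaceous (0.15 to 0.91) and T cell genes (0.07 to 0.50) among the latter. The median of the basal list ran from -0.35 to 0.07, that of the Sprr list from -0.37 to 0.69 and that of the adipocyte list from -0.15 to 0.62 with 1 library left out. The dermal fibroblast median ran from -0.66 to 0.18 and the interferon median from -0.46 to 0.01. Depth limits genes such as Ebf3, Gper1 and Itga9, which had at most 6 reads in each control.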
